A study of Mus musculus with 6 samples.

Results

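The glucocorticoid receptor, its relative the mineralocorticoid receptor, a steroid-activating enzyme and 7 genes that glucocorticoids induce were followed in the hearts of newborn mice whose mothers had been made diabetic in pregnancy. The members were chosen by symbol from the deposited table: Nr3c1, Nr3c2, Hsd11b1, Zbtb16, Fkbp5, Tsc22d3, Sgk1, Klf9, Errfi1 and Dusp1. All 10 were found, each in a single row, among 54532 genes. Heart RNA had been sequenced at day 4 from 6 wild-type mice labelled ICR, an outbred stock. Mothers of the control group (n = 3) received citric acid by intraperitoneal injection during pregnancy. Mothers of the STZ group (n = 3) received STZ the same way, read here as streptozotocin, a beta-cell toxin that raises blood glucose. The offspring themselves carry no transgene or deletion by their labels, and the labels do not tie hearts to litters, so that p-values here measure only the spread between these 6 samples. The series asks how diabetes in pregnancy alters the offspring heart, and the question here was whether a glucocorticoid-responsive group of genes differed with it.

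Glucocorticoids (corticosterone in the mouse) enter cells and bind a receptor held in the cytoplasm by heat shock chaperones. The hormone-bound receptor moves to the nucleus, where as a dimer it binds a palindromic DNA element and raises transcription of a set of rapidly responding genes. In heart muscle cells, which have little of the enzyme that inactivates corticosterone, the mineralocorticoid receptor can bind the same hormone. Glucocorticoid signalling around birth is known to promote structural and functional maturation of the heart.

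Values are FPKM, a level per kilobase of gene and per a library scale set by the authors, so that levels of different genes can be set side by side. They correspond to 16707268 to 18082599 whole reads per library. Control 2 stood apart from the other 5 libraries before any member was considered. Its library scale was 1.21 times its recovered reads, against 0.985 to 1.03 times in the others. The sum over 10 T cell and thymus markers was 121 FPKM in control 2 and 0.851 to 2.73 FPKM elsewhere, and none of these markers was at 0 in all libraries. Ucp1, the uncoupling protein that defines brown fat, was at 213 FPKM in control 2 and listed at 0 in the other 5. The 5 brown fat markers summed to 530 FPKM there and to 91.3 to 121 FPKM elsewhere. Atrial markers (9 genes) summed to 6322 FPKM in control 2 and to 50.8 to 132 FPKM elsewhere. Cardiomyocyte markers (10 genes) summed to 5243 FPKM in control 2, against 8950 to 10447 FPKM in the others, so the heart label held in every library. Control 2 also had the highest sums of fibroblast (1814 against 840 to 1074 FPKM), macrophage (113 against 47.4 to 59.8 FPKM) and erythroid markers (14548 against 2229 to 4927 FPKM). Fibroblast marker sums were lower in all 3 STZ hearts (840 to 909 FPKM) than in any control heart (939 to 1814 FPKM). Of the 10 genes, 5 had STZ values all below the control values, as did 3.62% of all genes tested. The atrial, smooth muscle and pericyte, macrophage, brown fat and lung epithelium lists held 1 such gene each. Adrenal cortex markers summed to at most 1.20 FPKM in any library, with Cyp11b1, Cyp21a1 and Hsd3b1 listed at 0 throughout. The part of the other tissues in the members' values was not tested, and the fitted differences of the members and the list medians are therefore given with and without control 2. Which parts of the heart each sample held is not described by the labels. In RNA from tissue of mixed cells, fewer cells of a type and less RNA per cell cannot be told apart.

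**Figure D1:**
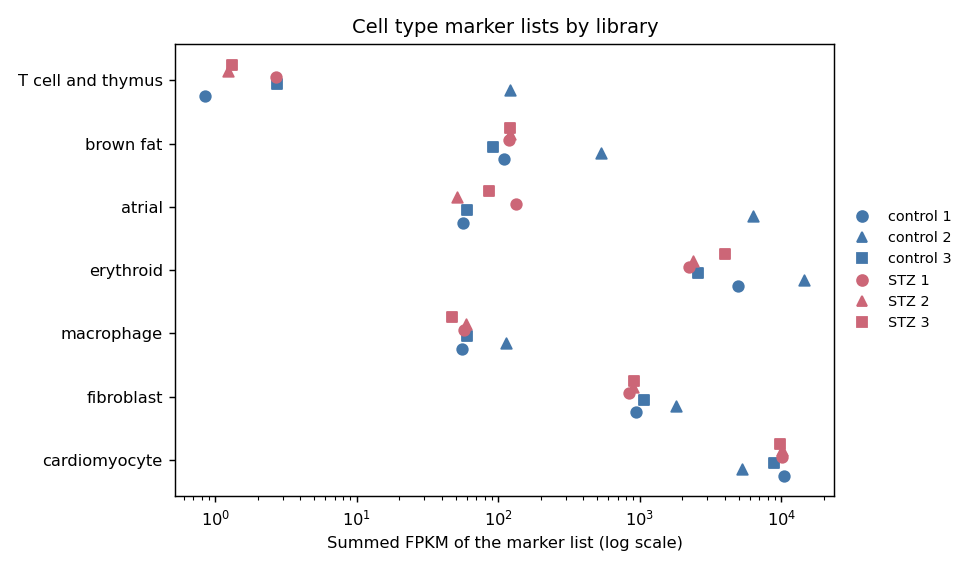
Summed FPKM (x axis, log scale) of 7 cell type marker lists in each of the 6 libraries, with control in blue and STZ in red and the marker shape giving the replicate number. Control 2 (blue triangle) lies apart for T cell and thymus (121 FPKM), brown fat and atrial markers (6322 FPKM), and is lowest for cardiomyocyte markers (5243 FPKM).

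Zbtb16 alone among the members had a higher value in every STZ heart than in any control heart with an unadjusted p under 0.05, and no member passed the test over all genes. It met the filter of that test only through the STZ group, which fixed its direction there, so this p is no independent support. The test was limma on log2(FPKM + 1) with Benjamini-Hochberg (BH) adjustment over the 12431 genes that reached 1 FPKM in 3 or more libraries. Of the 9 members that met this filter, 0 passed at an adjusted p of 0.05 and 1, Zbtb16, had an unadjusted p under 0.05. The same counts, 0 and 1, came from voom on the recovered reads. Over all genes tested 0.0241% passed (2 higher and 1 lower in STZ, or 2 and 2 after quantile normalization), and 2.59% had an unadjusted p under 0.05, 1.17% higher and 1.42% lower in STZ. Among the 9 members 8 had a positive fitted difference and 1 a negative difference, with a median of 0.09 on the log2 scale, beside 0.03 over all genes tested. Without control 2 the split was 4 positive and 5 negative and the median was -0.016, beside -0.0016 over all genes tested. Of the 8 positive differences, 5 turned negative without that library, and the negative one, of Fkbp5, turned positive. Over all genes tested 7176 differences were positive and 5255 negative, and without control 2 these were 6142 and 6289. The direction counts of the lists below are to be read beside these.

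**Figure D2:**
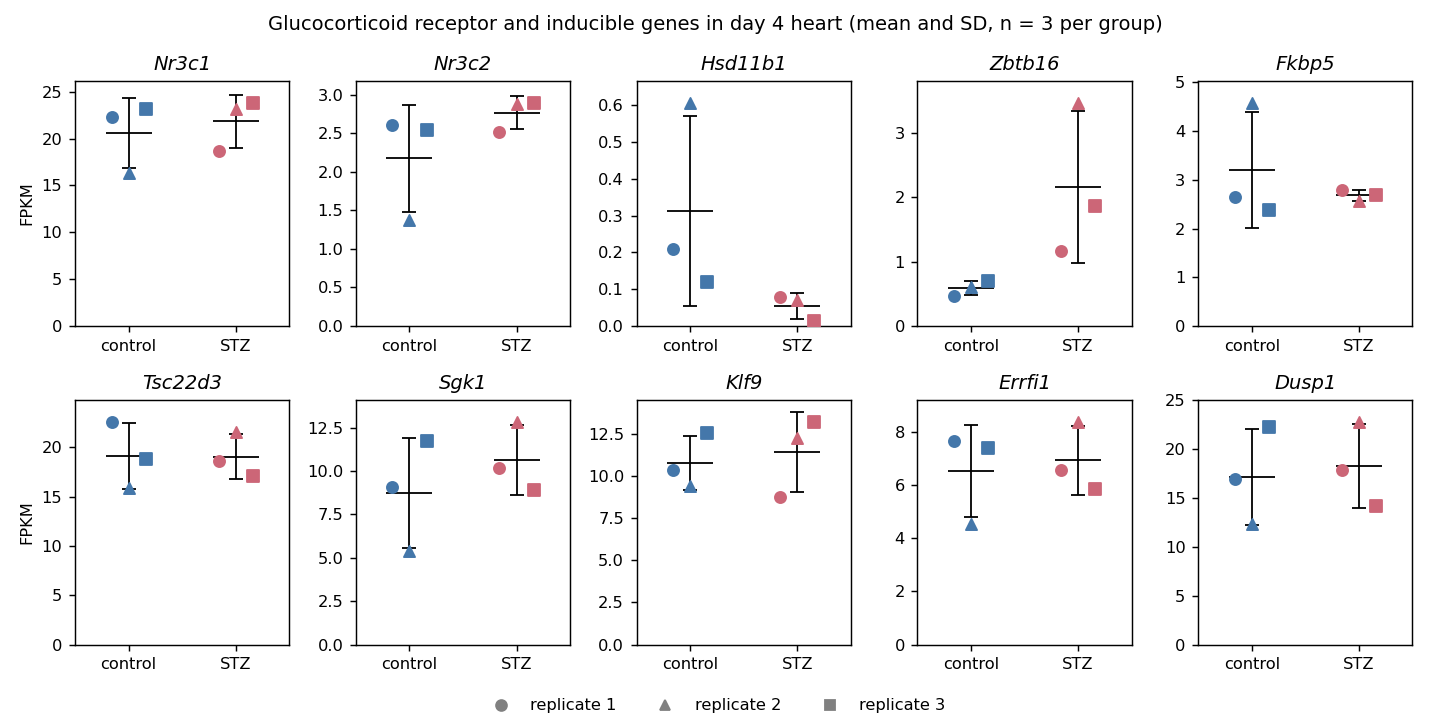
FPKM (y axis, from 0) of the 10 genes in control (blue) and STZ (red) hearts, with 1 point per library, the shape giving the replicate number, and bars for the mean and SD of 3. Zbtb16 is higher in each STZ heart (1.16 to 3.46 FPKM) than in each control heart (0.472 to 0.692 FPKM), Hsd11b1 is lower in each, and the groups overlap for the other 8 genes.

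Nr3c1 (ENSMUSG00000024431, GRCm38 chromosome 18, 39410545 to 39491301, minus strand) encodes the glucocorticoid receptor and had the highest mean level of the 10 members, 21.2 FPKM over the 6 hearts. Controls 1 to 3 had 22.3, 16.3 and 23.2 FPKM, and STZ hearts 1 to 3 had 18.6, 23.2 and 23.8 FPKM. The groups overlapped, and the lowest value was that of control 2. The group levels were 20.6 ± 3.72 and 21.9 ± 2.81 FPKM (SD, n = 3 each). The fitted log2 difference, STZ minus control, was 0.09 (SE 0.169; limma, BH-adjusted p = 0.934), with a 95% interval from -0.31 to 0.49. Without control 2 it was -0.06, with an interval from -0.35 to 0.23. These bounds limit the size of a difference in receptor transcript that the 6 hearts allow.

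Nr3c2 (ENSMUSG00000031618, chromosome 8, 76899442 to 77245012, plus strand), the mineralocorticoid receptor gene, was expressed far below its relative, at a mean of 2.47 FPKM. Its control values were 2.61, 1.37 and 2.55 FPKM and its STZ values 2.52, 2.89 and 2.89 FPKM. Control 2 was again the lowest, and STZ 1 lay below controls 1 and 3. The log2 difference of 0.27 (SE 0.182; limma, BH-adjusted p = 0.922; 95% interval -0.16 to 0.70) shrank to 0.07 without control 2. In the GENCODE annotation the Nr3c2 exons share 247 bases with a lncRNA gene on the opposite strand, Gm10649, whose own level was at most 0.147 FPKM. Without a stated strand setting, reads of these shared bases cannot be assigned.

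Hsd11b1 (ENSMUSG00000016194, chromosome 1, 193221634 to 193264075, minus strand) encodes the dehydrogenase that regenerates active glucocorticoid from its inactive form inside cells. Its level was very low and fell under the filter, so it has no value in the main test. It was at 0.210, 0.605 and 0.121 FPKM in controls 1 to 3, from 15, 55 and 9 reads. In STZ hearts 1 to 3 it was at 0.0793, 0.0700 and 0.0127 FPKM, from 6, 5 and 1 reads. Every STZ value was below every control value, as for 6.48% of the 7536 genes under the filter that had at least 10 reads in all. By exact permutation of the 6 Hsd11b1 values the two-sided p was 0.1, the lowest possible with 3 against 3. With voom on genes of at least 10 reads, a test added after the values were seen, the log2 difference was -2.45 (SE 1.02; unadjusted p = 0.0435, BH-adjusted p = 0.962). In that test 496 of 19951 genes had an unadjusted p under 0.05 in either direction. In the lower direction it was 1.47% of genes, and 0.00501% passed after adjustment. Among the members 2 had an unadjusted p under 0.05, Hsd11b1 in the lower and Zbtb16 in the higher direction, and 0 passed after adjustment. Control 2 held 55 of the 79 control reads, and without it the control mean moved from 0.312 to 0.165 FPKM, against 0.0540 FPKM in STZ hearts, and the difference in log2(FPKM + 1) moved from -0.30 to -0.14. Fibroblast marker sums were lower in all STZ hearts too, and their part in this was not tested. Hsd11b2, the enzyme that works in the inactivating direction, was also low, at 0.536 ± 0.278 and 0.166 ± 0.0709 FPKM, with control 1 and STZ 2 at the same 0.226 FPKM.

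Zbtb16 (ENSMUSG00000066687, chromosome 9, 48654297 to 48836222, minus strand) encodes PLZF, a zinc finger repressor that is a strongly inducible glucocorticoid target in many cell types. Control hearts 1 to 3 were at 0.472, 0.602 and 0.692 FPKM, from 42, 68 and 64 reads. STZ hearts 1 to 3 were at 1.16, 3.46 and 1.86 FPKM, from 109, 307 and 182 reads. The control values lay close together, while the STZ values spread about their mean, with STZ 2 highest, and the groups did not overlap. That holds for 4.92% of all genes tested in this direction. The means were 0.589 ± 0.110 and 2.16 ± 1.18 FPKM (SD, n = 3 each), a ratio of 3.67. On the log2(FPKM + 1) scale, which compresses low levels, the difference was 0.93 (SE 0.261; 95% interval 0.31 to 1.55; limma, unadjusted p = 0.00962, BH-adjusted p = 0.922). By exact permutation the two-sided p for Zbtb16 was 0.1, again the lowest possible.

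For the filter, 3 STZ and 0 control libraries reached 1 FPKM of Zbtb16. The difference did not rest on control 2: without that library the log2 difference was 0.94 and the ratio of means 3.71. Without STZ 2 the difference was 0.65, the lowest of the fits with a library left out. With a pseudocount of 0.1 it was 1.60, and with voom on recovered reads 1.65, both on scales that compress low values less. Over all alternatives with a value the BH-adjusted p ran from 0.554 to 0.9999. Zbtb16 had the lowest unadjusted p among the members, in rank 65 of the 12431 genes. Because it met the filter only through the STZ group, this rank is no independent support.

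Fkbp5 and Tsc22d3, which are also classical receptor targets, had overlapping groups. Fkbp5 (ENSMUSG00000024222, chromosome 17, 28399094 to 28517527, minus strand) encodes a co-chaperone that lowers the receptor's hormone affinity and so closes a feedback loop. Control values were 2.65, 4.57 and 2.38 FPKM, and STZ values 2.78, 2.57 and 2.69 FPKM. The 3 STZ values and controls 1 and 3 were nearly level, and control 2 alone was high. Its log2 difference of -0.15 (SE 0.195; limma, BH-adjusted p = 0.922; 95% interval -0.62 to 0.31) turned to 0.07 without control 2, with an interval from -0.17 to 0.31.

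Tsc22d3 (ENSMUSG00000031431, chromosome X, 140539528 to 140600659, minus strand) encodes GILZ, a leucine zipper protein that carries part of the anti-inflammatory action of glucocorticoids. Its values were 22.6, 15.9 and 18.8 FPKM in control and 18.6, 21.5 and 17.0 FPKM in STZ hearts. The group means, 19.1 ± 3.35 and 19.0 ± 2.27 FPKM, were the closest of any member. The log2 difference was 0.0031 (SE 0.157; limma, BH-adjusted p = 0.999; 95% interval -0.37 to 0.38). Without control 2 it was -0.12, so no direction can be given for Tsc22d3. The gene is X-linked, and control 3 was the only library with Xist above 0.0541 FPKM (70.6 FPKM) and with Ddx3y at 0. In the other libraries Ddx3y was at 13.4 to 17.9 FPKM. By these transcripts control 3 was female and the other hearts male, so no STZ heart was female. The Tsc22d3 value of control 3, 18.8 FPKM, lay between those of the other controls. The part of sex in the members' values was not tested.

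Sgk1 (ENSMUSG00000019970, chromosome 10, 21882184 to 21999903, plus strand) encodes a kinase induced by serum, glucocorticoids and mineralocorticoids that acts on ion channels and transporters. It is shown first by sequence, because of the members' promoters in the RefSeq table (GRCm38.p6) only those of Sgk1 held the receptor's palindrome with 2 mismatches or fewer. The windows run from 250 bases before to 50 after a start, and 8 of 10 members had a window, 16 in all, while Nr3c1 and Zbtb16 had none. The palindrome searched has the arms AGAACA and TGTTCT with any 3 bases (NNN) between them and reads the same on both strands. Each arm alone was searched too, on both strands, and arms inside a palindrome count there as well. A match with 0 mismatches stood in 1 of the 6 Sgk1 windows and in 3 of all 32851 windows (0.00913%). With at most 2 mismatches allowed, 2 of the 16 member windows held a match, both of Sgk1, and 1.84% of all windows. A single arm was present in 4 of the 16 member windows and in 19.0% of all windows. The Sgk1 window with the full palindrome, chr10:21993640-21993939 on the plus strand, and the Tsc22d3 window with a single arm, chrX:140600473-140600772 on the minus strand, are shown to set a complete element beside an isolated arm. They are written 5′ to 3′ with the palindrome and arms in capitals:
Sgk1: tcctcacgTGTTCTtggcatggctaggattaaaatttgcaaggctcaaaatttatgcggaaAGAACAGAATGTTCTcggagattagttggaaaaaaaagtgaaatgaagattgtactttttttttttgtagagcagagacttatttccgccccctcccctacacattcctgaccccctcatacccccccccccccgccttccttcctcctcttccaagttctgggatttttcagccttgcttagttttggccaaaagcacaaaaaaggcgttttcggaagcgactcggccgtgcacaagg
Tsc22d3: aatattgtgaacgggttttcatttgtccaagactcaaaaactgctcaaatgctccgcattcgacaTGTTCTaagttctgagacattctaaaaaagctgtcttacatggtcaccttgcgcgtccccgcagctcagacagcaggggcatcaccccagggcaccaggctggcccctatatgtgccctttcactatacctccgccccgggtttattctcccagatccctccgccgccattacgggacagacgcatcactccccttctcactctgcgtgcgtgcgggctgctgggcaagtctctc
The Sgk1 palindrome, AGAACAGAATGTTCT, lies at chr10:21993701-21993715 and its first base is 189 bases before that start. These matches describe letters in the windows and not binding.

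In the gene with this element the groups overlapped. Sgk1 levels were 9.10, 5.41 and 11.7 FPKM in control hearts 1 to 3, against 10.2, 12.8 and 8.89 FPKM in STZ hearts 1 to 3. The ranges overlapped, with control 2 lowest and STZ 2 highest. The log2 difference was 0.30 (SE 0.262; limma, BH-adjusted p = 0.922; 95% interval -0.32 to 0.92), and 0.02 without control 2, with an interval from -0.39 to 0.44.

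Klf9 (ENSMUSG00000033863, chromosome 19, 23141226 to 23166911, plus strand) encodes a Kruppel-like repressor that glucocorticoids induce and that limits later responses. Its level was 10.3, 9.40 and 12.5 FPKM in control hearts against 8.72, 12.3 and 13.2 FPKM in STZ hearts. STZ 1 had the lowest and STZ 3 the highest value of the 6, so the spread lay within the STZ group. The log2 difference was 0.07 (SE 0.177; limma, BH-adjusted p = 0.946; 95% interval -0.35 to 0.49), and -0.016 without control 2.

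Errfi1 and Dusp1 are feedback inhibitors of growth factor signalling that respond to glucocorticoids and also, within minutes, to growth factors and stress. Errfi1 (ENSMUSG00000028967, chromosome 4, 150853919 to 150868892, plus strand) encodes MIG6, which blocks the EGF receptor kinase. It was at 7.66, 4.53 and 7.38 FPKM in control and at 6.54, 8.37 and 5.84 FPKM in STZ hearts, with a log2 difference of 0.09 (SE 0.208; limma, BH-adjusted p = 0.941; 95% interval -0.40 to 0.58). Dusp1 (ENSMUSG00000024190, chromosome 17, 26505590 to 26508519, minus strand) encodes a phosphatase that inactivates MAP kinases. It was at 16.9, 12.3 and 22.2 FPKM in control and at 17.9, 22.8 and 14.2 FPKM in STZ hearts, with a log2 difference of 0.10 (SE 0.245; limma, BH-adjusted p = 0.944; 95% interval -0.48 to 0.68). Both were lowest in control 2 and highest in STZ 2, and both differences turned negative without control 2, to -0.12 for Errfi1 and -0.10 for Dusp1.

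**Figure D3:**
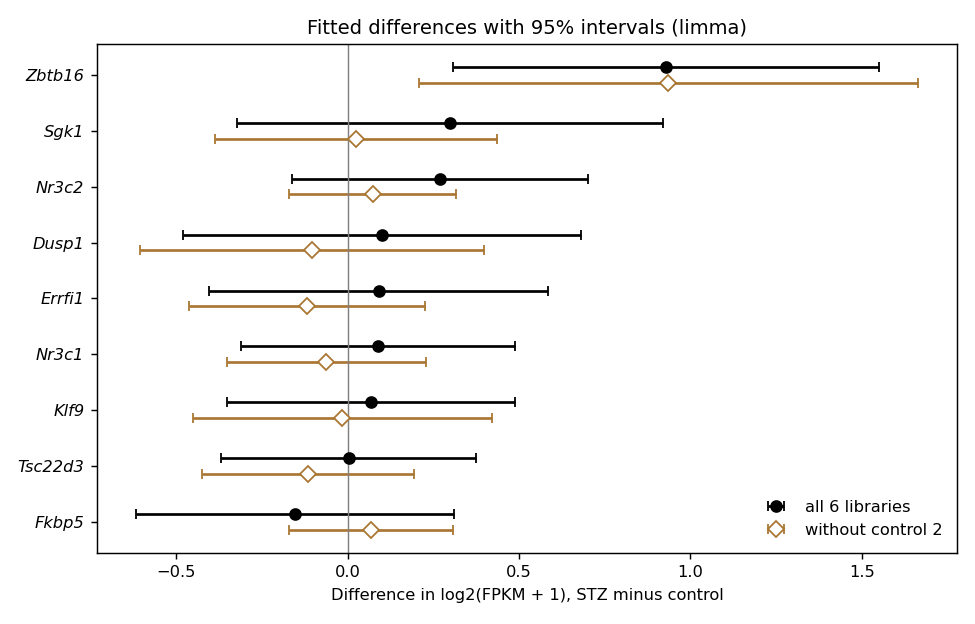
Fitted difference in log2(FPKM + 1), STZ minus control (x axis), with its 95% interval for the 9 members that met the filter, from all 6 libraries (filled circles) and without control 2 (open diamonds). The interval excludes 0 for Zbtb16 alone (0.31 to 1.55 with all libraries), before any adjustment for the number of genes. Zbtb16 met the filter only through the STZ group, which fixed its direction, so its interval is no independent support. The other 8 intervals include 0 with and without control 2.

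The members also differed in how they ordered the libraries. Sgk1 and Dusp1 ranked the 6 libraries identically, from STZ 2 and control 3 at the top to STZ 3 and control 2 at the bottom, an order that crosses the groups. STZ 2 and control 3 were also the 2 highest libraries for 6 of 14 immediate early genes, which answer to handling and stress within minutes. The share of genes with these 2 libraries highest among all genes tested was not computed, so the count cannot be read as an excess. Egr3, counted here, was at most 0.797 FPKM in any library. Egr1, among these 6, was at 7.90 FPKM in STZ 2 and 6.91 FPKM in control 3, against 4.15 to 4.91 FPKM in the others. The rest of the list ordered the libraries otherwise. Junb and Btg2 were highest in control 2, Klf2 in control 1, Ier3 in STZ 1, and Fosb and Klf4 in STZ 3. Fos and Nr4a1 were highest in STZ 2 without control 3 as the next. Zbtb16 was highest in STZ 2 too, and its control 3 value of 0.692 FPKM was the highest of the controls. The part of handling in these orders was not tested. Control 2 had the lowest value of 6 members and the highest of 2, Fkbp5 and Hsd11b1, where over all genes tested it was lowest for 41.7% and highest for 27.4%. Scaled to recovered reads, it was lowest for 3 members and highest for 2, where over all genes tested it was lowest for 22.9% and highest for 46.9%.

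By mean level the members ranked Nr3c1, Tsc22d3, Dusp1, Klf9, Sgk1, Errfi1, Fkbp5, Nr3c2, Zbtb16 and Hsd11b1, from 21.2 to 0.183 FPKM. Each neighbouring pair in this order overlapped over the 6 libraries, so only wider steps separate, such as Nr3c1 (at least 16.3 FPKM) from Klf9 (at most 13.2 FPKM). Between the highest and lowest library the ratio was 1.42 for Tsc22d3, 1.45 for Nr3c1, 7.32 for Zbtb16 and 47.7 for Hsd11b1, whose lowest value came from 1 read.

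The wider receptor machinery, a list of 16 chaperones, coregulators and steroid enzymes, likewise held no gene past the threshold. Of 15 tested, 14 had a positive difference and 1 a negative difference, with a median of 0.11 and 0 at an unadjusted p under 0.05 (limma, and voom the same). Over all genes tested 7176 were positive and 5255 negative. Without control 2 the receptor machinery list split 9 and 6, with a median of 0.02, beside 6142 and 6289 over all genes tested. The lowest p-values belonged to the coactivators Ncoa2, at 5.87 ± 1.40 and 7.30 ± 0.567 FPKM, and Ncoa3, at 6.33 ± 1.08 and 7.56 ± 0.587 FPKM, and to the Mediator subunit Med1, at 7.39 ± 1.30 and 8.66 ± 0.666 FPKM. Both coactivators were higher in each STZ heart than in each control heart, as were 4.92% of all genes tested, with log2 differences of 0.29 and 0.23 that were 0.11 and 0.10 without control 2. That of Med1 was 0.21, and 0.08 without it. Hsp90ab1, the chaperone that holds the receptor ready for hormone, was at 383 ± 55.7 and 419 ± 18.5 FPKM (log2 difference 0.14, and 0.02 without control 2). Ncoa1, another coactivator, was at 8.11 ± 1.67 and 8.80 ± 0.550 FPKM (log2 difference 0.12, and -0.04 without control 2).

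Other glucocorticoid-inducible genes were read from a list of 30 taken from general knowledge, with earlier results of these data already known. Of 26 tested, 17 had a positive and 9 a negative difference, 0 passed the threshold (limma, and voom the same) and 1, Cdkn1c, had an unadjusted p under 0.05. The median of 0.08 turned to -0.04 without control 2, where 11 were positive and 15 negative. Cdkn1c, a cell cycle inhibitor gene, was at 22.9, 27.0 and 22.7 FPKM in control and at 20.1, 20.9 and 18.0 FPKM in STZ hearts, lower in each STZ heart, as were 3.62% of all genes tested. Its log2 difference was -0.28 (SE 0.119; limma, BH-adjusted p = 0.922), and -0.21 without control 2. Fibroblast marker sums were likewise lower in all STZ hearts, and their part in the Cdkn1c values was not tested. Of the genes tested in this list, 1, Cdkn1a, was higher in each STZ heart, as were 4.92% of all genes tested. It was at 8.22, 7.79 and 9.78 FPKM in control and at 9.83, 10.5 and 9.98 FPKM in STZ hearts. The log2 difference of Cdkn1a was 0.22 (SE 0.112; limma, BH-adjusted p = 0.922), and 0.155 without control 2. Irs2, an adaptor of the insulin receptor, was at 4.09 ± 1.15 and 5.84 ± 0.897 FPKM, and its log2 difference of 0.44 was 0.28 without control 2. Pdk4, the kinase that shuts pyruvate out of oxidation and is also a target of fatty acid receptors, was at 69.8 ± 24.1 and 103 ± 30.1 FPKM (log2 difference 0.57, SE 0.290; limma, BH-adjusted p = 0.922), and its difference was 0.47 without control 2. The clock gene Per1, which carries a receptor element in its promoter, was at 3.54, 2.98 and 5.81 FPKM in control and at 4.06, 4.58 and 6.57 FPKM in STZ hearts, an overlap of the groups (log2 difference 0.26, and 0.10 without control 2).

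Time of day and handling move several of these genes, so lists for both were read in the same fit. Of 14 circadian clock genes tested, 6 were positive and 8 negative (median -0.03), and of 11 immediate early genes 6 were positive and 5 negative (median 0.04). Without control 2 the clock list had 3 positive and 11 negative members (median -0.09) and the immediate early list 8 and 3 (median 0.05). In both lists 0 passed the threshold and 0 had an unadjusted p under 0.05 (limma, and voom the same). Among clock genes the lowest p-values were those of Tef (13.2 ± 3.56 and 9.53 ± 1.61 FPKM), Dbp and Nr1d1 (6.19 ± 1.13 and 7.24 ± 0.673 FPKM). Their log2 differences were -0.41, -0.52 and 0.20, and -0.26, -0.41 and 0.08 without control 2. Dbp, an output gene of the clock with a steep daily rhythm, was at 9.86 and 8.67 FPKM in controls 1 and 2 but at 4.43 FPKM in control 3, beside 4.86, 3.62 and 6.14 FPKM in STZ hearts. Control 3 thus lay with the STZ hearts for Dbp. Its place differed between clock genes: Clock and Npas2 were highest in control 3, while Per2 and Per3 were lowest there. Among immediate early genes the lowest p-values were those of Jun, Klf4 (9.32 ± 1.75 and 10.7 ± 1.31 FPKM) and Nr4a1 (4.50 ± 0.678 and 5.19 ± 1.05 FPKM). Those differences were 0.30, 0.19 and 0.17, and 0.26, 0.04 and 0.06 without control 2. The part of time of day in the members' values was not tested.

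**Figure D4:**
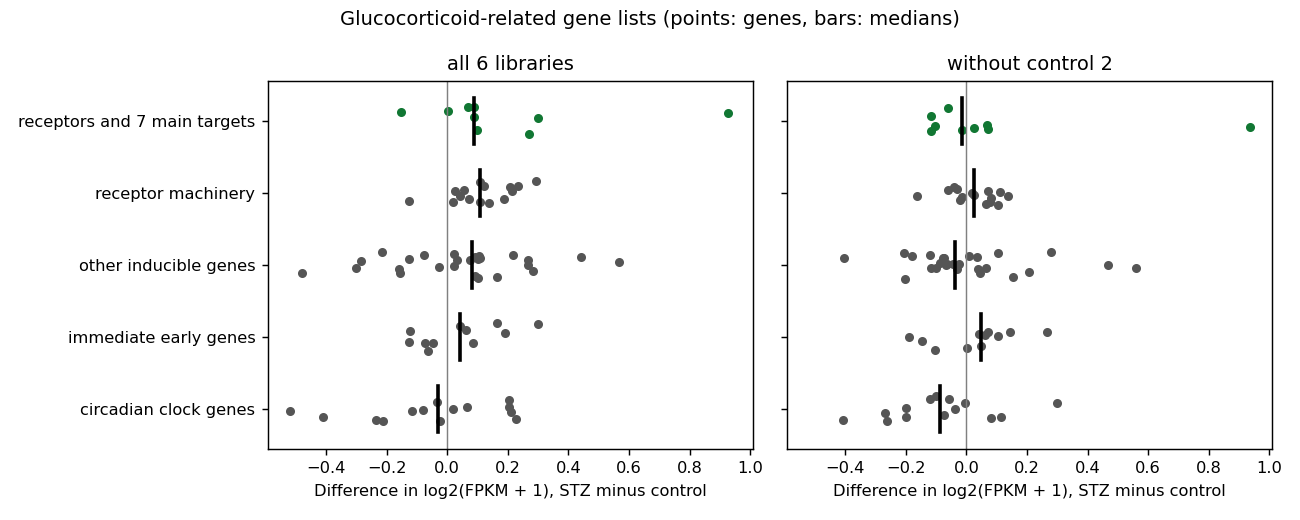
Fitted difference in log2(FPKM + 1), STZ minus control (x axis), for each tested gene (points) of the members and 4 related lists, with the list median as a bar, from all 6 libraries (left) and without control 2 (right). Medians lie between -0.03 and 0.11 with all libraries, and Zbtb16 (0.93, or 0.94 without control 2) is the point farthest to the right in both panels.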

How the data were processed

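RNA-seq of 3 control and 3 STZ hearts was read from the authors' 1 deposited table, in FPKM per gene, per kilobase of the gene length in that table and per a library scale. No header states the unit, which was read from the table's abbreviated name and its values. The build was GRCm38 (mm10), per the submitters' processing notes, while the sources used here name no aligner, counter or strand setting. Value times gene length gave whole multiples of a single step per library, within 0.01 reads for 100% of values above 0, and these recovered reads served depth and voom.

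Log2(FPKM + 1) values of genes reaching 1 FPKM in 3 or more libraries were fitted with limma 3.58.1 (R 4.3.3, prior variance trended on mean level), group being the only term. Two-sided p-values were BH-adjusted over all 12431 genes. Members were also tested by exact permutation over 20 assignments. Named beside the members were 4 genes fixed by name (Hsd11b2, Per1, Ncoa1 and Hsp90ab1) and the 3 lowest p-values of each list. Further genes of these lists are named where a library order or a gap between the groups is described. The members and lists were chosen with earlier results of these data known. Alternatives covered pseudocount, filter, scaling, replicate block, weights, prior variance, voom and each library left out. Promoters came from RefSeq, GRCm38.p6. Figures used matplotlib 3.10.9 in Python 3.11.15.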

Additional observations from a re-analysis of the deposited data

How the results depend on the processing

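Over 18 alternatives the members had 179 values, of which 161 were tested and 0 passed an adjusted p of 0.05, the lowest being 0.554. The 18 without a test were those under the filter of the setting, mostly of Hsd11b1. Zbtb16, Hsd11b1, Nr3c2 and Sgk1 kept their direction in every alternative that gave them a value. For Zbtb16 and Hsd11b1 the groups did not overlap. Their direction was thus fixed in every fit on the authors' scale, and its stability there is no added support. The remaining 6 members, Nr3c1, Fkbp5, Tsc22d3, Klf9, Errfi1 and Dusp1, had small differences that turned in 21 values, and the cause was not tested. Array weights gave -0.00053 for Nr3c1, 0.0075 for Fkbp5, -0.079 for Tsc22d3 and -0.018 for Errfi1. Tsc22d3 was -0.061 when rescaled to recovered reads, -0.025 after quantile normalization, -0.0203 with upper-quartile scaling and -0.071 with voom on recovered reads, or -0.065 with voom on genes of at least 10 reads, which was added after seeing the data. Klf9 was -0.0019 with voom. With each library left out in turn the log2 difference ran from -0.063 to 0.19 for Nr3c1, -0.29 to 0.068 for Fkbp5, -0.12 to 0.13 for Tsc22d3, -0.040 to 0.23 for Klf9, -0.12 to 0.21 for Errfi1 and -0.10 to 0.30 for Dusp1. The median of the other inducible genes ran from -0.039 to 0.12 over the same fits.

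Counts of all genes called, 2 higher and 1 lower, were from 1 to 2 and from 1 to 3 with a library left out. There was 1 higher with a pseudocount of 0.1, with no filter, with a mean of at least 5 FPKM and with either voom fit. There were 2 lower after quantile normalization, 6 with array weights and 0 with either voom fit. With the replicate number as a block 0 were higher and 0 lower. Whether the numbers pair the hearts could not be decided from correlations of their deviations from the group mean. Same-numbered hearts correlated at 0.021, -0.041 and 0.092 across genes, and the other pairs at -0.14 to 0.081. All values were small, and deviations within a group of 3 depend on each other. Depth limits Hsd11b1 most, with 12 reads over the 3 STZ hearts.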
